A study of Mus musculus with 18 samples.

Results

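The DNA repair gene families described here were taken by symbol, as all genes named Rad50 to Rad59, Xrcc, Fanca to Fancm, Brca1, Brca2, Ercc1 to Ercc8, or Msh or Mlh with a digit of the mismatch repair family. Longer symbols that begin like a Rad, Xrcc, Fanc or Ercc name were taken too. Genes of these families without a probe set of 1 symbol were not analysed here. The rule matched 40 of the 30176 genes that had a probe set with 1 symbol. The study bisected parthenogenetic embryos at the 2-cell stage and measured each blastomere on its own array, to ask whether sister blastomeres carry like amounts of mRNA. The 18 blastomeres came from 9 embryos, numbered 1 to 5 and 7 to 10, and the sisters of an embryo are called a and b. All of them were made from metaphase II oocytes of superovulated B6C3F1 females of 6 to 8 weeks, a hybrid of C57BL/6 and C3H mice. The oocytes were activated with strontium and latrunculin, without sperm, and the embryos were cultured in KSOM(aa) for 1 day. The labels and methods thus give all blastomeres the same strain of mother, treatment and stage. The genotype of each embryo was not given. The letters a and b carry no stated meaning, and no untreated or fertilized embryo entered the comparisons. Parthenogenetic embryos hold maternal chromosomes alone, which limits them as a model of the fertilized embryo.

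A cell repairs its DNA by several routes. Homologous recombination mends double-strand breaks by copying an intact sequence, and the Fanconi anaemia proteins open crosslinks between the strands and hand them on to recombination. Mismatch repair corrects errors of replication, nucleotide excision repair cuts out bulky damage, and end joining seals breaks without a copy. In the early embryo these proteins come largely from the store of the oocyte, and the RNA of the 2-cell stage is a mixture of stored maternal transcripts and the first products of the embryo's genome. Several of the proteins also serve the crossing over of chromosomes in meiosis, which takes place in the oocyte before birth.

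Many repair genes are known targets of the E2F factors of the cell cycle. The strict E2F motifs TTTCCCGC and TTTGGCGC were searched on both strands in the 250 bases before each gene's start, in RefSeq promoters of build GRCm38.p6. Of the 40 genes, 35 were in the promoter table. A motif was found in 5 of the 35 (14.3%) and in 1.51% of the promoters of all 27025 genes of that table. The 30 bases around each motif are shown because this motif was more common in these promoters than in the table as a whole, with the motif in capitals, on the strand of the gene.
Brca2: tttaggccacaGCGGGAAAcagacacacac
Fancg: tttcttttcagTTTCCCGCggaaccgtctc
Msh3: ttgccgtcaagTTTGGCGCgaaatcgcagc
Msh5: tgacggaaaagGCGGGAAAgtgctgcgaat
Xrcc6: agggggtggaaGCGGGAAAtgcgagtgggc
The motif began 168 bases before the start of Brca2 on chromosome 5, 52 bases before Fancg on chromosome 4 and 202 bases before Msh3 on chromosome 13. It began 65 bases before Msh5 on chromosome 17 and 46 bases before Xrcc6 on chromosome 15. The CCAAT box, searched as CCAAT on both strands, was found in 20 of the 35 promoters (57.1%) and in 37.5% of all promoters. A match describes the sequence and not a bound site. The 5 genes with an E2F motif had no common level, since Msh5 read under background in every blastomere and Brca2 above it in every blastomere.

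The values were log2 signals normalized between arrays, so that differences in total RNA between blastomeres cannot be seen in them. Genes counted as above background if they averaged more than 5.80 over 18 blastomeres. This threshold was the 95th percentile of the means of 1443 genes with no place in these embryos (1435 chemosensory receptors and 8 Y-linked genes). By this rule 32 of the 40 repair genes (80.0%) and 12885 of all 30176 genes (42.7%) were above background. The 8 markers of oocytes and 2-cell embryos were all above it, and of 14 markers of the surrounding cumulus and granulosa cells 3 were (Amhr2, Has2 and Nr5a2, at 5.90, 6.43 and 9.51), while the defining granulosa markers Fshr, Foxl2 and Amh were not. Blastomeres 1a and 5b deviated most from the others over all genes, with an interquartile range of 0.815 and 0.835 log2 units around the median blastomere, against 0.55 to 0.79 in the other 16. Sister correlations across genes lay between 0.911 and 0.948. The number of arrays limits the precision, and the signal of a probe set depends on its probes, so that levels were not compared between genes.

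**Figure D1:**
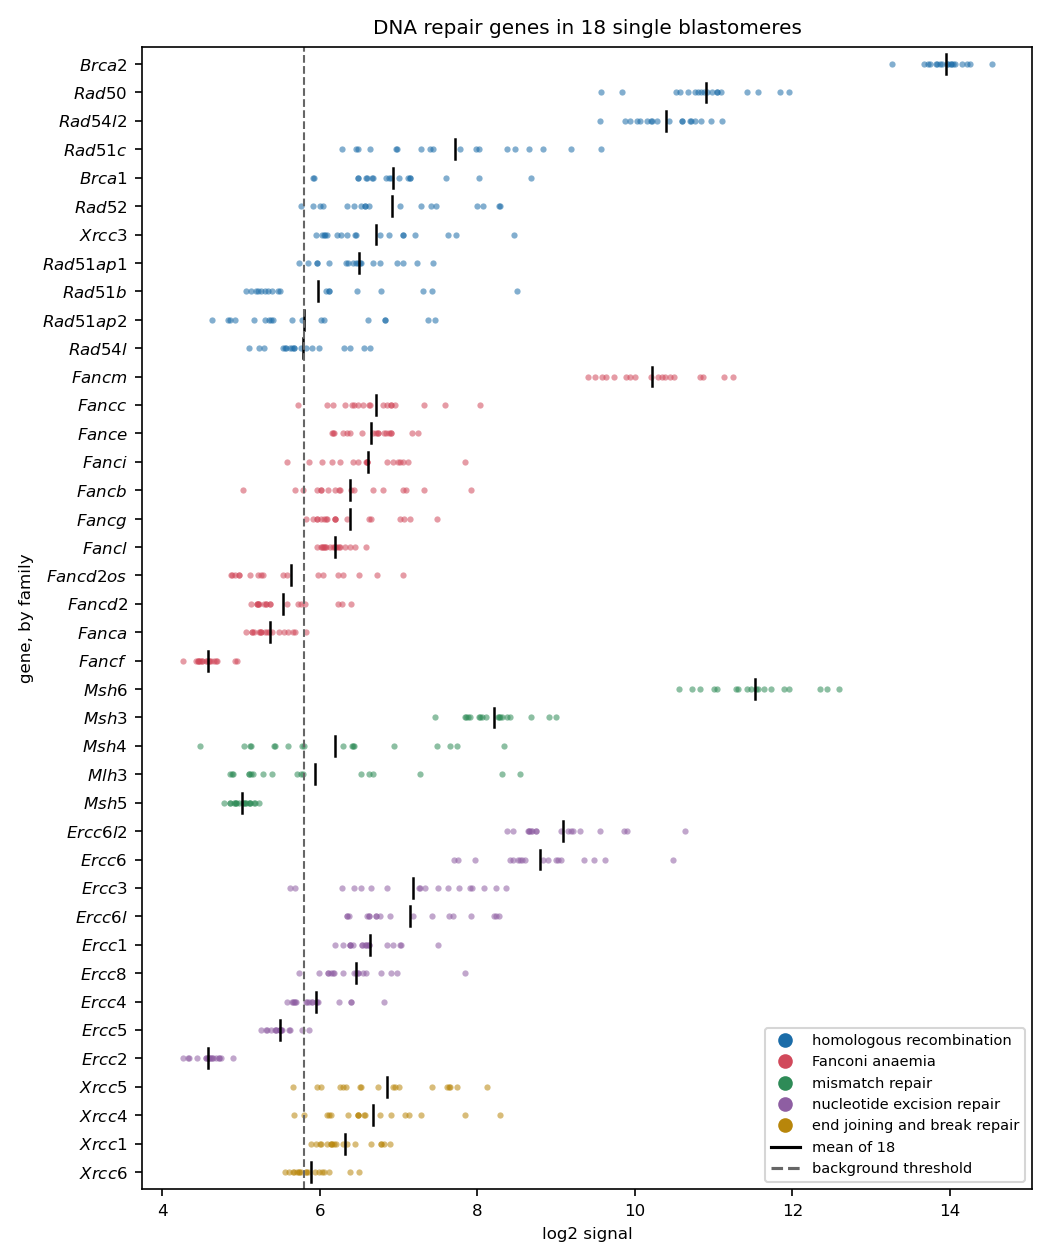
Log2 signal (horizontal axis) of the 40 repair genes (rows, by family) in 18 single blastomeres (points), with the mean as a black bar and the background threshold of 5.80 as a dashed line. The 8 genes with a mean left of the line were not above background, and genes such as Mlh3, Msh4 and Rad51b had blastomeres on both sides of it.

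Of the 32 genes above background, 17 exceeded the threshold in all 18 blastomeres and 15 were under it in at least 1. Of these 15, 6 exceeded it in 12 blastomeres or fewer, namely Ercc4 (12), Xrcc6 (10), Msh4 (9), Rad51b (8), Rad51ap2 (7) and Mlh3 (6). The genes just inside the threshold were Rad51ap2 at 5.80, Xrcc6 at 5.89 and Mlh3 at 5.95. Just outside were Rad54l at 5.79, Fancd2os at 5.64 and Fancd2 at 5.54.

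Of the 11 genes grouped here under homologous recombination, Rad54l2 by its name alone, 10 were above background. Brca2, which loads the recombinase onto single-stranded DNA, averaged 13.95 ± 0.27 (SD, n = 18), with the lowest value of 13.26 in blastomere 1a, a median of 13.98 and the highest value of 14.53 in 7a. The sisters of 7 of 9 pairs lay within 1.27-fold of each other for Brca2, and the ratio reached 1.69 in embryo 1 and 1.72 in embryo 7. Rad50, a subunit of the complex that tethers and trims broken ends, averaged 10.91 ± 0.60, from 9.57 in 1a over a median of 10.90 to 11.96 in 5a. Brca2 and Rad50 thus both had their lowest value in 1a, a blastomere that stood apart over all genes. Rad54l2, a chromatin remodeller that shares the Rad54 name rather than an established place in recombination, averaged 10.39 ± 0.42, with 9.56 in 9b, a median of 10.36 and 11.11 in 8b.

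Brca1, a ubiquitin ligase that promotes the trimming of broken ends, averaged 6.93 ± 0.67. It read 8.68 and 8.02 in sisters a and b of embryo 9, and between 5.91 and 7.60 in the 16 blastomeres of the other embryos. Both sisters of embryo 9 were thus above every other blastomere. Rad52, which anneals single strands, averaged 6.92 ± 0.84, from 5.76 in 2b to 8.29 in 5b, a blastomere that stood apart over all genes. Xrcc3, a partner of Rad51c, averaged 6.71 and was highest in blastomere 5a at 8.47. Rad51ap1, an accessory factor of strand pairing, averaged 6.49 ± 0.48, and Rad51ap2, a binding partner of the same recombinase, 5.80 ± 0.88. Rad54l, a motor protein of strand invasion, was under the background threshold by its mean and over it in 7 of 18 blastomeres.

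Rad51c and Rad51b, paralogs of the recombinase and subunits of the complexes that help build the recombinase filament, had the widest gaps between sisters. Rad51c averaged 7.71 ± 0.99. It read 9.19 in 1a and 6.48 in 1b, 6.64 in 2a and 8.38 in 2b, and 8.66 in 3a and 6.97 in 3b. In embryo 4 it read 8.84 in a and 6.46 in b, in embryo 5 7.78 and 9.57, and in embryo 7 6.28 and 8.02. Only in embryo 8 were the sisters alike, at 7.40 in a and 7.44 in b. Embryo 9 had 7.29 in a and 8.48 in b, and embryo 10 had 7.98 in a and 6.98 in b. Sister a was the higher one in 4 of 9 pairs, so the higher sister followed no letter. Rad51b averaged 5.98 ± 0.97, from 5.06 in 3a over a median of 5.49 to 8.50 in 7a, and its sisters differed most in embryo 7, where b read 5.25.

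Of the 11 genes with a Fanconi anaemia symbol, 7 were above background. Fancm, a motor protein that recognizes crosslinked DNA, averaged 10.22 ± 0.56, from 9.40 in 2b over a median of 10.25 to 11.25 in 9a. Subunits of the core ubiquitin ligase had means of 6.71 for Fancc, 6.65 for Fance, 6.39 for Fancb, 6.38 for Fancg and 6.19 for Fancl. Fancl, the catalytic subunit, varied little, with an SD of 0.17, a lowest value of 5.97 in 3a, a median of 6.18 and a highest value of 6.59 in 5a. It lay close to background throughout, and Fancf, which was not above background, had the same SD of 0.17. Fanci, a partner in the clamp that the ligase modifies, averaged 6.61. Its clamp partner Fancd2 (5.54), the core subunits Fanca (5.37) and Fancf (4.58), and Fancd2os (5.64), which lies opposite Fancd2, were not above background. Fancd2os exceeded the threshold in 7 blastomeres, with 7.06 in 4a against 4.87 in its sister 4b, and Fancd2 in 4. Their transcripts lie on opposite strands, and whether the probe sets tell them apart was not tested.

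Of the 5 mismatch repair homologs, 4 were above background. Msh6, a mismatch sensor, averaged 11.52 ± 0.58, with 10.56 in 10a, a median of 11.51 and 12.59 in 3b. Msh3, which recognizes small loops, averaged 8.21 ± 0.39, from 7.46 in 2b over a median of 8.19 to 9.00 in 5a. The other 3 serve mainly in meiotic crossing over. Msh4 averaged 6.20 ± 1.08 and read 8.34 in 2a and 7.74 in 2b, while 9 of 18 blastomeres were under the background threshold, down to 4.48 in 10b. Mlh3, a nuclease subunit, averaged 5.95 ± 1.15 and exceeded the threshold in 3a (8.32), 4b (6.63), 7a (6.53), 7b (6.67), 9a (7.27) and 9b (8.54). The sister of 3a read 5.10, under the threshold, so that the ratio of 9.32 within embryo 3 is one against background. Msh5, which pairs with the Msh4 protein, lay between 4.78 and 5.23 in all blastomeres.

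Of the 9 Ercc genes, grouped here under nucleotide excision repair by their name, 7 were above background. Ercc6 and Ercc8, the Cockayne syndrome genes that couple repair to transcription, averaged 8.79 ± 0.68 and 6.46 ± 0.47. Ercc3, a helicase of the transcription factor complex that unwinds DNA at the damage, averaged 7.19 ± 0.84, from 5.62 in 10a over a median of 7.31 to 8.37 in 2b. Ercc1 and Ercc4 encode the subunits of the nuclease that cuts on the 5′ side, and averaged 6.64 ± 0.32 and 5.95 ± 0.32. Ercc1 ranged from 6.20 in 5a over a median of 6.58 to 7.50 in 7a. Ercc6l2, a relative of Ercc6 linked to break repair, averaged 9.09 ± 0.59. Its highest value of 10.64 was in blastomere 1a, which stood apart over all genes, against 8.64 in 1b. Ercc2 (4.58) and Ercc5 (5.50), the second helicase of the unwinding complex and the nuclease of the 3′ side, were not above background.

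The 4 Xrcc genes of end joining and single-strand break repair taken by the rule were all above background, while 5 of 8 further end joining genes were. Xrcc5 and Xrcc6, which encode the Ku subunits that cap broken ends, averaged 6.86 ± 0.72 and 5.89 ± 0.26. Xrcc6 ranged from 5.56 in 3a to 6.50 in 9b, with a median of 5.83, so that it lay close to background throughout. Xrcc4, the partner of the end-joining ligase, averaged 6.67 ± 0.67, with 8.29 in 9a and 5.80 in its sister 9b. Xrcc1, the scaffold of single-strand break repair, averaged 6.32 ± 0.33.

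Differences between embryos were set against the spread between sisters with limma's moderated F test, fitted over all 12885 genes above background. At an adjusted p under 0.05 the test called 749 genes (5.81%), and 1 of the 32 repair genes, Ercc6l. The unadjusted p was under 0.05 for 8 repair genes (25.0%) and for 2912 of all genes (22.6%), so that the share among repair genes was near the background. Ercc6l, which has an Ercc symbol but encodes a motor protein of the DNA threads that link chromosomes in anaphase, read 8.21 and 8.24 in sisters a and b of embryo 9. It read 7.69 and 8.27 in embryo 7 and 7.92 and 7.64 in embryo 3. In embryos 1, 2 and 4 the sisters read 6.72 and 7.43, 6.72 and 7.19, and 6.63 and 6.76. In embryos 5, 8 and 10 they read 6.37 and 6.60, 6.63 and 6.35, and 6.35 and 6.89. The 6 blastomeres of embryos 3, 7 and 9 were thus above the 12 blastomeres of the other embryos. The embryo means spanned 1.74 log2 units between embryo 9 at 8.23 and embryo 5 at 6.49. The test had a residual SD between sisters of 0.30 and an adjusted p of 0.0288 (limma).

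The call of Ercc6l did not hold in every subset. Its adjusted p in limma lay between 0.0523 and 0.0777 without blastomere 3a, 3b, 4a, 4b, 7b, 8a, 8b, 9a or 9b, and at 0.054, 0.0546 and 0.0961 without pair 7, 8 or 9.

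**Figure D2:**
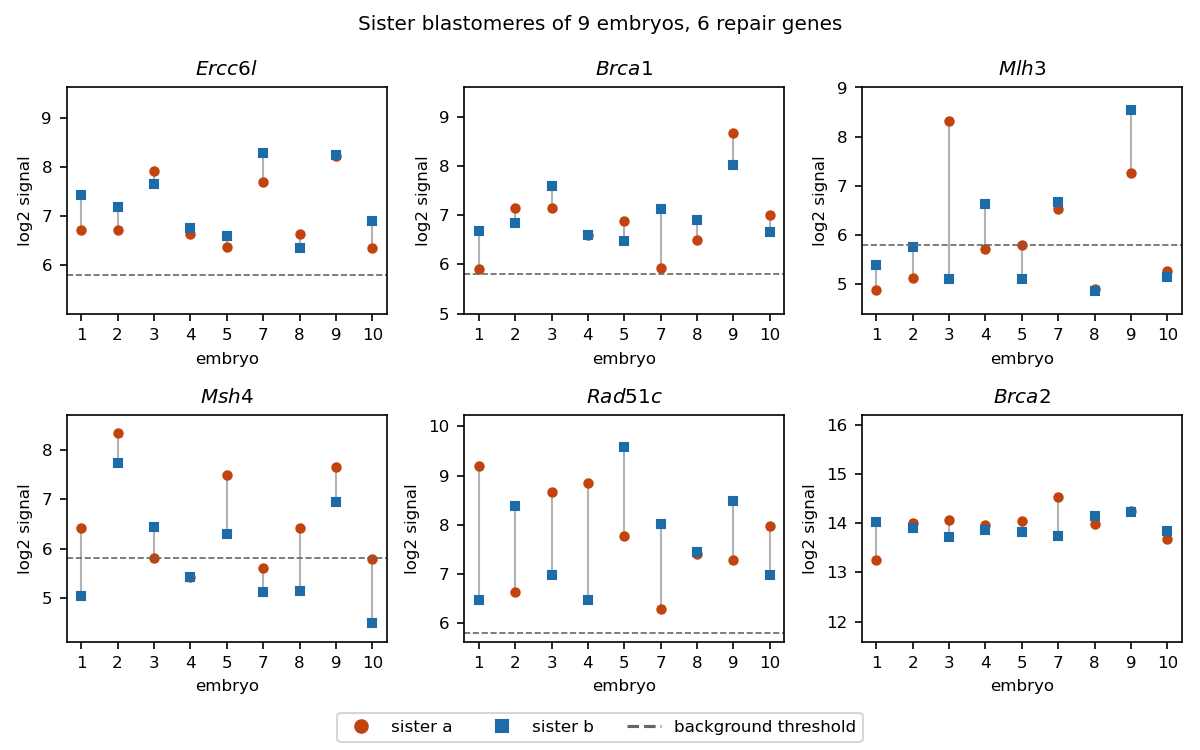
Log2 signal (vertical axes, each spanning the same number of log2 units) of Ercc6l, Brca1, Mlh3, Msh4, Rad51c and Brca2 in sister a (orange circles) and sister b (blue squares) of each of 9 embryos (horizontal axes), with sisters joined by a line and the background threshold of 5.80 dashed where it falls in the panel. The sisters of embryos 3, 7 and 9 lie above the rest for Ercc6l, both sisters of embryo 9 lie above the rest for Brca1, and the sisters of 8 embryos lie far apart for Rad51c.

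The 7 other repair genes with an unadjusted p under 0.05 did not pass the adjustment. Msh4 had the widest span of these after Mlh3, with an embryo mean of 8.04 in embryo 2 and 5.13 in embryo 10 (adjusted p = 0.0606, limma). Mlh3 had 7.91 in embryo 9 and 4.88 in embryo 8 (adjusted p = 0.177). Brca1 had 8.35 in embryo 9 and 6.29 in embryo 1 (adjusted p = 0.107). Msh6 had 12.40 in embryo 5 and 10.79 in embryo 10 (adjusted p = 0.147). The others were Rad51ap2, Ercc1 and Rad54l2, with adjusted p between 0.177 and 0.207 in limma. By family these 8 genes were 3 of 10 genes of homologous recombination above background, 3 of 4 of mismatch repair and 2 of 7 of the Ercc group. None of the 7 Fanconi anaemia and 4 end joining genes was among them. Beside these stand 22.6% of all genes, and the families, of few genes each, were not compared by a test. The adjusted p of these genes rested on a few blastomeres, in both directions. Msh4 had an adjusted p of 0.0474 without 1a and 0.0416 without pair 1, against 0.163 without 2a and 0.206 without pair 2 (limma). Mlh3 had 0.0117 without 3b and 0.0212 without 3a, against 0.404 without 9b and 0.472 without pair 9 (adjusted p, limma). Brca1 had 0.356 without 9a and 0.608 without pair 9, and Msh6 0.320 without pair 5 (adjusted p, limma).

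Embryo 9 had the highest median shift of the 32 repair genes. The median over the 32 genes of the embryo mean minus the gene's own mean was 0.19 log2 units in embryo 9, against −0.07 over all genes above background. In that embryo 23 of 32 repair genes (71.9%) were above their own mean, against 42.4% of all genes, and 10 (31.3%) had their highest embryo mean there, against 7.97% of all genes. These 10 were Brca1, Brca2, Ercc6l, Ercc6l2, Fancg, Fancm, Mlh3, Xrcc1, Xrcc5 and Xrcc6, which come from all 5 families. Mlh3, the only mismatch repair gene among them, averaged over the background threshold only with embryo 9 counted. Its place in this count was thus not independent of that embryo. The median shift was 0.25 in sister 9a and 0.24 in sister 9b, so that it was present in both. The 95 other repair genes above background, described at the end, did not read high in this embryo: their median shift was −0.03, 45 of them (47.4%) were above their own mean, and 12 each had their highest and their lowest embryo mean there.

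Embryo 5 also held the highest mean of 10 repair genes (31.3%, against 16.5% of all genes), namely Fancc, Fanci, Fancl, Msh3, Msh6, Rad50, Rad51ap2, Rad51c, Rad52 and Xrcc3. Of these, Rad51ap2 averaged just over the background threshold, and under it without embryo 5. The median shift of embryo 5 was −0.02, since other repair genes, Ercc6l and Rad51ap1 among them, read low in the same embryo. By sister it was 0.15 in 5a and −0.20 in 5b, the blastomere that stood apart over all genes, so that the sisters went opposite ways. The lowest median shifts were −0.20 in embryo 8, against 0.03 over all genes, and −0.16 in embryo 10, against −0.05. Both depended on single blastomeres, since the shift of embryo 8 was −0.109 without 8a and that of embryo 10 was −0.266 without 10a, so that the order of these embryos was not settled. In embryo 10, 9 of 32 repair genes (28.1%) were above their own mean, against 44.4% of all genes. The 95 other repair genes above background read highest in embryo 5, where their median shift was 0.24. There 63 of them (66.3%, against 53.7% of all genes) were above their own mean, and 24 (25.3%) had their highest embryo mean. Their median shift was 0.05 in embryo 8 and −0.01 in embryo 10, and it was lowest in embryo 1 at −0.19. These shifts were not tested, because genes of 1 blastomere share its array and are not replicates.

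**Figure D3:**
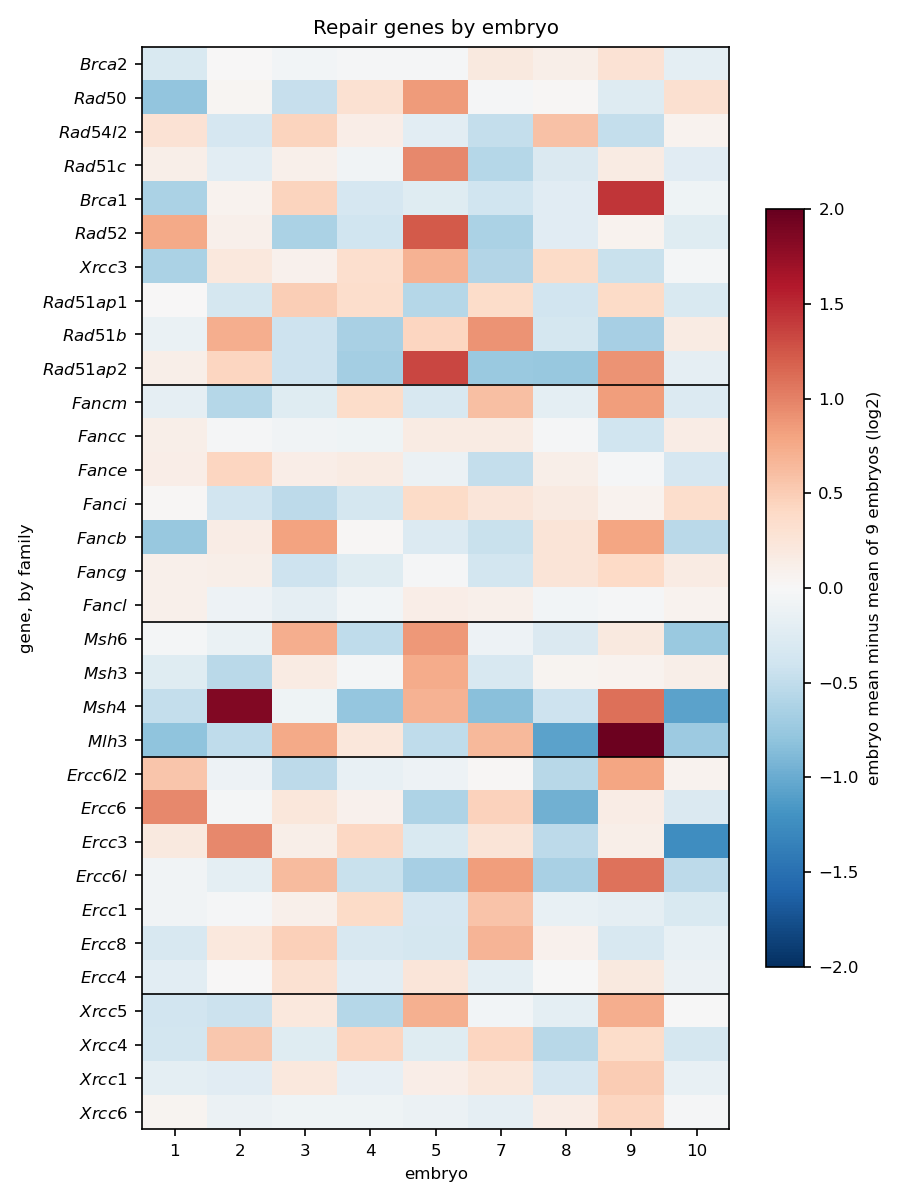
Embryo mean minus the mean of the 9 embryos (colour, log2 units) for the 32 repair genes above background (rows, by family, separated by lines) in each embryo (columns). Embryo 9 is red in 23 of 32 rows, with the strongest colours for Mlh3 and Brca1, and embryo 10 in 9 of 32.

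The interblastomere ratio, the higher over the lower linear signal of a pair, is never under 1 and grows with technical noise. Its geometric mean over the 9 sister pairs had a median of 1.48 over the 32 repair genes, against 1.58 over all 144 pairs of non-sisters. Over all genes above background the medians were 1.45 for sisters and 1.56 for non-sisters. Sisters were closer than non-sisters for 21 of 32 repair genes (65.6%), against 68.8% of all genes. Sisters differed by more than 2-fold in 54 of 288 comparisons of a repair gene within a pair (18.8%), against 18.9% over all genes. Repair genes as a whole thus differed between sisters about as often as other genes.

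Single repair genes differed widely in this ratio. No pair was over 2-fold apart for 12 of the 32 genes, and 1 to 3 pairs were for 16 genes. For Xrcc5 and Msh4 it was 4 pairs. For Rad51b it was 6 and for Rad51c 7 of 9 pairs, while 3.74% of all genes were over 2-fold apart in 6 or more pairs. Rad51c had a geometric mean ratio of 3.00 between sisters, against 2.21 between non-sisters. By pair its ratios were 6.54, 3.34 and 3.23 in embryos 1, 2 and 3, 5.21, 3.46 and 3.34 in embryos 4, 5 and 7, and 1.03, 2.28 and 2.00 in embryos 8, 9 and 10. Without pairs 1 and 5, which hold the blastomeres that stood apart, the ratio was 2.63, with 5 of 7 pairs over 2-fold. Sister ratios exceeded non-sister ratios as much as for Rad51c, on the log scale, in 38 of the 12885 genes with that gene counted, and this count is a description with no test.

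Rad51b had a geometric mean ratio of 2.39 between sisters, against 2.05 between non-sisters, and 2.22 without pairs 1 and 5. Its largest ratio was 9.51 in embryo 7, where sister b read 5.25 and was under the background threshold, and its smallest 1.02 in embryo 9, where both sisters were under it. The lower sister was under the threshold in 5 of the 6 pairs that were over 2-fold apart for Rad51b, and in 0 of 7 for Rad51c. It was so in 3 of 4 such pairs for Msh4 and in 1 of 4 for Xrcc5. Ercc3 had 1.99 between sisters and 1.97 between non-sisters, and Rad52 had 1.84 and 1.97. Rad52 differed most in embryo 2, with a ratio of 5.74 against a sister under the threshold (5.76 in 2b), and in embryo 8 (2.97-fold). Over all 32 repair genes, the lower sister was under the threshold in 19 of the 54 comparisons over 2-fold (35.2%), against 15.6% over all genes, and the part of background in the ratios was not tested.

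The smallest ratios belonged to Ercc1 with 1.12 between sisters and 1.28 between non-sisters, Fancl with 1.16 and 1.14, Msh3 with 1.17 and 1.37, and Rad54l2 with 1.19 and 1.42. Ercc1 sisters differed by 1.48-fold at most, in embryo 7. Fancl differed little between any blastomeres, and it lay close to background in all of them. Msh3 and Rad54l2 sisters differed by 1.54-fold and 1.65-fold at most, in embryos 3 and 9, and neither gene was called between embryos (adjusted p = 0.259 and 0.207, limma). Brca2 had the same ratio of 1.23 between sisters and between non-sisters. Ercc6l had 1.28 between sisters and 1.76 between non-sisters.

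By family, the median sister ratio was 1.58 for homologous recombination, with 27.8% of comparisons over 2-fold, and 1.57 for Fanconi anaemia, with 15.9%. It was 1.59 for mismatch repair and 1.45 for end joining and break repair, each with 16.7% over 2-fold, and 1.32 for the Ercc genes, with 11.1%. The higher share of homologous recombination came in part from Rad51c and Rad51b, which gave 13 of its 25 comparisons over 2-fold. By embryo, 9 of 32 repair genes were over 2-fold apart in embryo 3 (28.1%, against 16.2% of all genes) and 2 of 32 in embryo 4 (6.25%, against 17.0%), with 4 to 8 in the others.

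**Figure D4:**
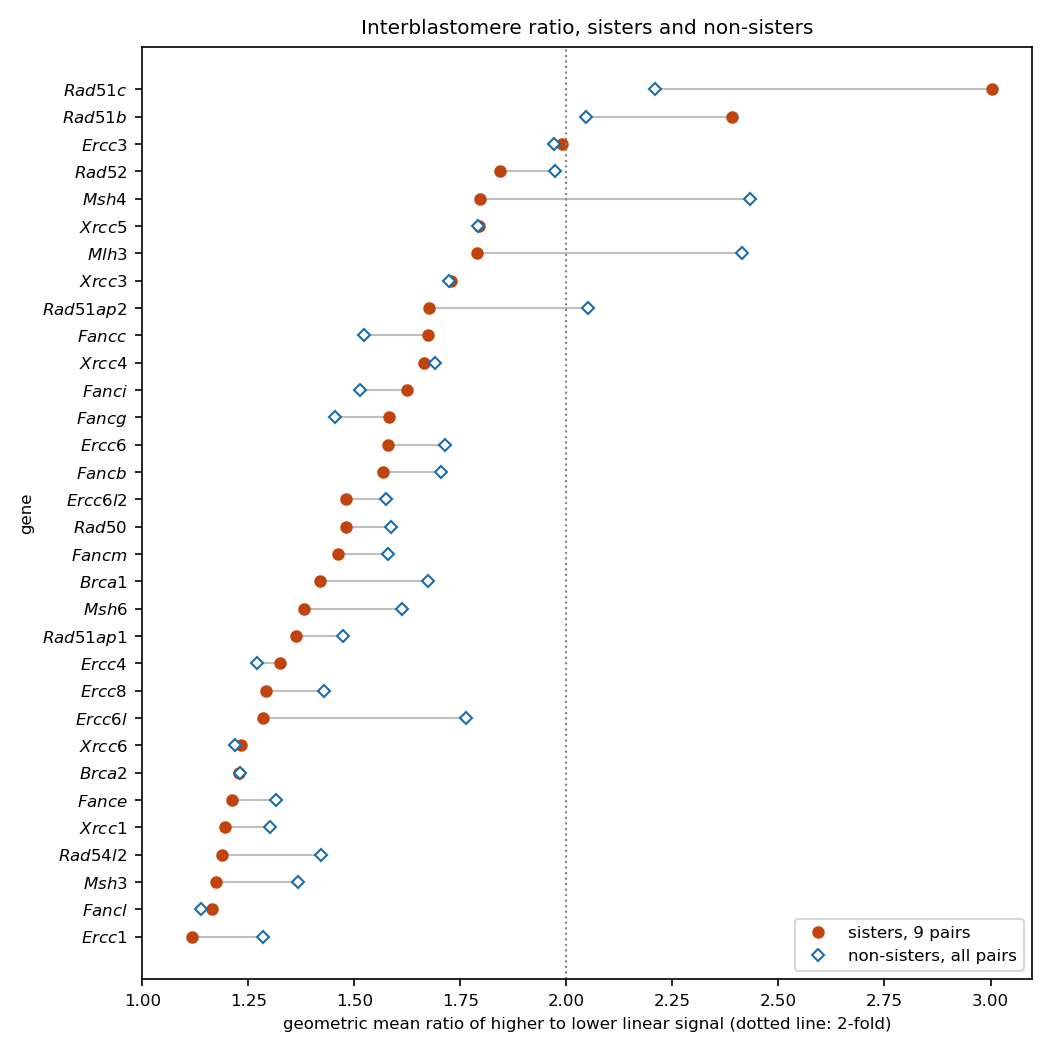
Geometric mean interblastomere ratio (horizontal axis, higher over lower linear signal) of the 32 repair genes above background (rows) over 9 sister pairs (filled circles) and 144 non-sister pairs (open diamonds), with a dotted line at 2-fold. Rad51c has the largest sister ratio at 3.00, right of its non-sister ratio of 2.21, and Ercc6l, Msh4 and Mlh3 have sister ratios well left of their non-sister ratios.

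The spread between sisters was also set against limma's prior for genes of like signal. This test called 0% of all genes and no repair gene. Before adjustment 538 of the 12885 genes and 2 of the 32 repair genes passed 0.05. These 2 were Rad51b (unadjusted p = 0.0240) and Mlh3 (unadjusted p = 0.0436), which exceeded the background threshold in only 8 and 6 of 18 blastomeres. Rad51c had an unadjusted p of 0.0707 in this test. The adjusted p was 0.918 for all 3. The prior carried only 3.29 degrees of freedom, so that this test had little power and its count of 0 does not show that sisters were alike.

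Sister a was compared with sister b although the letters have no stated meaning. Limma with the embryo as a block called 0% of all genes and no repair gene, with an unadjusted p under 0.05 for 587 genes (4.56%) and 3 repair genes (9.38%). Msh4 was higher in sister a in 7 of 9 pairs, by 0.70 log2 units on average (unadjusted p = 0.0063, limma). For this gene 9 of 18 blastomeres were under the background threshold, with both sisters of embryos 4, 7 and 10 among them. Rad52 and Ercc4 were higher in sister a in 6 of 9 pairs each, by 0.65 and 0.31 log2 units (unadjusted p = 0.0484 for each, limma), and the adjusted p was 0.981 for all 3.

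The rest of the repair machinery was given by a list of 105 further genes, of which 95 were above background. The test between embryos called 5 of them (5.26%), near the 5.81% of all genes. Rad9a, a subunit of the checkpoint clamp, had an embryo mean of 9.93 in embryo 3 and 5.65 in embryo 1 (adjusted p = 0.0251, limma). Sfr1, a helper of the recombinase, had 14.93 in embryo 5 and 12.23 in embryo 1 (adjusted p = 0.0289, limma). Rpa2 and Rpa3 encode subunits of the protein that coats single-stranded DNA. Rpa3 had 10.87 in embryo 5 and 9.13 in embryo 9 (adjusted p = 0.0369, limma). Rpa2 reached 8.05 in embryo 3 and only 5.96 in embryo 5 (adjusted p = 0.0404, limma). These subunits of the same protein thus lay at opposite ends of their range in embryo 5. Neil2, a glycosylase of base excision repair, had 7.07 in embryo 9 and 5.73 in embryo 2 (adjusted p = 0.0375, limma). For Rad9a, Sfr1, Rpa3 and Rpa2 an extreme embryo mean lay in embryo 1 or 5, which hold the blastomeres that stood apart. Whether the calls of these further genes held with blastomeres left out was not examined. By list, 3 of 21 genes of recombination above background were called, 1 of 21 of damage signalling and 1 of 34 of excision repair. None of 10 Fanconi, 6 mismatch and 5 end joining genes was called.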

How the data were processed

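Single blastomeres were lysed, and their total RNA was amplified, biotinylated with the WT Pico kit and hybridised to Affymetrix Mouse Transcriptome Array 1.0, as the labels and the methods of the study describe. The authors deposited log2 values, made in Expression Console by signal space transformation with robust multiarray averaging, which corrects background, equalizes the arrays and gives 1 value for each probe set. The sources used here do not give the genome build of the probe sets. The table held 65956 probe sets, of which 30638 had 1 gene symbol in the platform annotation, 2176 had several and 33142 were not listed. Gene identifiers of the RefSeq table changed 0 symbols. Only probe sets with 1 symbol were named, which left out 3 that paired a matching symbol with another, and the probe set with the highest mean was kept per gene. Each repair gene had 1 probe set. Alternatives were a stricter threshold (99th percentile, 7.15) and none, the mean over probe sets, re-centred and quantile-normalized arrays, plain analysis of variance, limma without trend and with robust priors, the letter as a replicate block, each blastomere or pair left out and, added after seeing the data, 1a and 5b left out. Deviations by letter correlated between −0.112 and 0.094 over the 36 pairs of embryos, so that the letters do not pair samples. The error of the F test is the spread between sisters, and no technical replicates were given. Named with full values were called genes, the 5 with the highest mean, the 4 with the smallest and largest sister ratio and the 3 on each side of the threshold. The genes and lists were chosen with earlier results of these data known. R 4.3.3, limma 3.58.1 and Python 3.11.15 were used, with Benjamini-Hochberg adjustment, and the scripts were tested on simulated data. In these simulations the test of excess spread had little power.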

Additional observations from a re-analysis of the deposited data

How the results depend on the processing

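The sister ratio of the repair genes (1.40 to 1.54) and the share over 2-fold (16.4% to 20.8%) stayed within their spread under every alternative run. The tests of excess spread and of the letters called 0 genes throughout. For excess spread this count carries little information, because that test had little power. The count of repair genes that differed between embryos was 1. It was 0 with the stricter threshold, which leaves Ercc6l untested, 2 with the letter as a replicate block (Msh4 at an adjusted p of 0.0206, limma), 2 without 1a and 5b (Msh4 at 0.0416) and 0 to 2 with blastomeres or pairs left out. The adjusted p of Ercc6l ranged from 0.0195 to 0.0961. Over all genes the count of 749 became 353 with plain analysis of variance, 403 with no threshold and 422 to 893 with blastomeres or pairs left out. With 1 blastomere left out, the median shift lay between −0.22 and −0.109 in embryo 8, 0.179 and 0.271 in embryo 9, and −0.266 and −0.128 in embryo 10. The cause of these changes was not tested. Signals near the threshold limit Mlh3, Msh4, Rad51b, Rad51ap2, Ercc4 and Xrcc6, and the small spread of Fancl.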
